A study of Mus musculus with 16 samples.

Results

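A set of 33 genes that charge, make or carry amino acids or answer to their shortage was followed in sorted mouse distal colon epithelium. The set was named by symbol: 20 cytosolic aminoacyl-tRNA synthetases and 13 genes of amino acid supply and stress. All 33 symbols were found among the 21442 genes of the count table, and all 33 were among the 12915 genes that passed the filter on low counts and were tested. Trib3 passed it only through the goblet cell libraries.

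Aminoacyl-tRNA synthetases join each amino acid to its tRNA and so feed the ribosome. In mammals several of them are held together in the multisynthetase complex, and the others, called free here, are not part of it. When uncharged tRNA, unfolded protein in the endoplasmic reticulum, viral RNA or haem shortage activates the kinases GCN2, PERK, PKR or HRI, phosphorylation of eIF2alpha slows most translation and favours that of the transcription factor ATF4. ATF4 then raises transcription of synthetases, of asparagine and serine synthesis enzymes, of amino acid carriers and of feedback genes such as Trib3 and Chac1. Goblet cells secrete large amounts of the mucin MUC2 and have a prominent endoplasmic reticulum.

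The 16 libraries came from distal colon of mice aged 6 to 8 weeks, with 4 libraries in each of 4 groups and no treatment named. SpdefKO_GC libraries are goblet cells of SpdefKO_RedMUC298trTg mice, which lack Spdef, a goblet cell transcription factor, by their label. WT_GC libraries are goblet cells of RedMUC298trTg mice. SpdefKO_EC and WT_EC libraries are the remaining epithelial cells of those strains. Mice of every group carried the RedMUC298trTg transgene, and cells were sorted by presence (GC) or absence (EC) of mCherry. The labels do not name the promoter of the transgene. GC and EC lysates were purified on different columns, MinElute for GC and Mini for EC, so column and cell fraction cannot be told apart. Libraries are named below by group and the number in their title. Whether each library is from its own mouse, and whether GC and EC libraries come from the same mice, is not stated, and the p-values therefore cover only library-to-library spread, some of which may be technical.

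Gene counts summed to 10085637–17111987 per library. Spdef itself had 391, 380, 470 and 300.4 CPM (the gene's count scaled to the library's total) in SpdefKO_GC libraries 3, 5, 7 and 19, against 285, 321, 293 and 323 CPM in WT_GC libraries 9, 11, 13 and 18. Whether the counts cover the deleted part is not known here, so the genotype rests on the label and the libraries are called by it. Summed over 10 goblet cell markers, WT_GC libraries held 54628 ± 2918 CPM and WT_EC libraries 592 ± 98.3 CPM (SD, n = 4 each). Summed over 10 absorptive colonocyte markers, WT_GC libraries held 582 ± 61.8 CPM and WT_EC libraries 10818 ± 480.3 CPM. In SpdefKO, the goblet cell markers summed to 62168 ± 5246 CPM in SpdefKO_GC and 505 ± 17.8 CPM in SpdefKO_EC libraries. Taken singly, 9 of the 10 goblet cell markers were higher and 1 was lower in WT_GC against WT_EC. In SpdefKO_GC against SpdefKO_EC, 9 were higher and 1 did not pass. All 10 absorptive markers were lower in goblet cells of both genotypes. In sum, both fractions thus carried the markers of their label. In these bulk samples, fewer cells of a type and less RNA per cell cannot be told apart.

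The promoters are shown first, because ATF4 with a C/EBP partner is known to bind a composite element, and the letters TGATGNAAN (N, any base) were searched for on both strands. RefSeq windows (GRCm38.p6) from 250 bases before to 50 bases after the annotated start were given for 25 of the 33 members, 24 matched by symbol and Mars by gene ID. No window was given for Cars, Hars, Lars, Nars, Rars, Vars, Wars or Slc7a5. Of the 25 members, 9 held the letters (36%), against 4.50% of 27025 genes with such a window. The set was named in part for ATF4 targets, so a higher share follows partly from that choice. The 27025 genes were counted whether or not they were tested here. These 9 were Aars, Gars, Iars, Tars, Yars, Asns, Slc7a11, Trib3 and Chac1. The 250 bases before the start are printed below for 3 of them, the cystine carrier Slc7a11, asparagine synthetase Asns and the glutathione-degrading enzyme Chac1, which are among those that differed most between the sorted fractions. Capitals mark the match, which reads as the reverse complement where it lies on the opposite strand.
Slc7a11 (chr3:50443614-50443863, minus strand): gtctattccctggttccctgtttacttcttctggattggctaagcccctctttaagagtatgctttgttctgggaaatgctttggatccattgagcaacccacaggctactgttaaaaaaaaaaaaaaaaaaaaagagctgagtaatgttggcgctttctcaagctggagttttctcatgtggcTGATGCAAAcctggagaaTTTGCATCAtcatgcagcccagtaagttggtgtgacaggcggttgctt
Asns (chr6:7693210-7693459, minus strand): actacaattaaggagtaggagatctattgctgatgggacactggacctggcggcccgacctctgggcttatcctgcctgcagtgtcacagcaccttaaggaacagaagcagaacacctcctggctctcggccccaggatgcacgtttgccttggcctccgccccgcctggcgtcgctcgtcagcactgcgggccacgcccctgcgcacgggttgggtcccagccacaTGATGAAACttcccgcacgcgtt
Chac1 (chr2:119350992-119351241, plus strand): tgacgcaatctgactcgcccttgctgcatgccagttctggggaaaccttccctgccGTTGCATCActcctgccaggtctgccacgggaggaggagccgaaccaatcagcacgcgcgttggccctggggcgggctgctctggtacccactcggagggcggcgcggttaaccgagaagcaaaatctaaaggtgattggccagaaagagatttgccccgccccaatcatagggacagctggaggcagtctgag

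The Slc7a11 window held 2 matches, which began 66 and 48 bases before the start and face each other. The Asns match began 23 bases before the start and the Chac1 match 194 bases before it. A match of each of 5 synthetases and of Trib3, a pseudokinase that restrains ATF4, is given with 10 bases on each side; not every match is printed.
Aars, chr8:111033840-111033868: agcgggtcacTTTTCATCAgagcgctctg
Gars, chr6:55037960-55037988: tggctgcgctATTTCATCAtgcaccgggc
Iars, chr13:49682126-49682154: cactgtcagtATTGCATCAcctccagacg
Tars, chr15:11399656-11399684: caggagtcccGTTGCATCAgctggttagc
Yars, chr4:129189896-129189924: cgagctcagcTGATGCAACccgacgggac
Trib3, chr2:152344029-152344057: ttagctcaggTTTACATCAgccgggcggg

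Tars and Trib3 lie on the minus strand, and the stretches of the other 4 genes on the plus strand. In Gars and Tars the match began 31 and 16 bases before the start, and in Iars, Yars and Trib3 6, 3 and 13 bases after it. The Aars match shown began 8 bases after the start. A match is a description of letters, not evidence of binding, and no match says only that the letters are absent from the window. The stricter letters TGATGCAAT were found in 2 of the 25 members (8%) and in 0.222% of all genes with a window.

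Levels are compared between genes as CPM per kilobase of the principal transcript. In WT_GC libraries the synthetases ran from 14.1 CPM per kilobase for Iars, the isoleucine enzyme, to 98.4 for Wars, the tryptophan enzyme. In SpdefKO_GC libraries the same genes marked the ends, at 17 and 135 CPM per kilobase. In the EC fraction Iars was again lowest, at 9.12 in SpdefKO_EC and 8.56 in WT_EC libraries, but the highest was Kars, the lysine enzyme, at 74.5 and 59.0 CPM per kilobase in those groups. Among the 13 other members, Asns was highest in SpdefKO_GC and WT_GC libraries, at 48.8 and 47.8 CPM per kilobase. Slc3a2, the heavy chain that brings several amino acid carriers to the cell surface, was highest in SpdefKO_EC and WT_EC libraries, at 18.3 and 24.1 CPM per kilobase. Trib3 was lowest in every group, from 0.198 CPM per kilobase in WT_EC to 0.860 in WT_GC libraries.

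Goblet cells carried more of these transcripts than the other epithelium of the same genotype. In WT_GC against WT_EC, 23 of 33 members were higher and 1 was lower at an adjusted p under 0.05, against 31% and 30.2% of all tested genes. The median log2 fold change was 0.50 over the members and 0.05 over all tested genes. Of the 20 synthetases, 17 rose and Kars, Qars and Gars did not pass the test. Trib3 entered only through the goblet cell libraries, where it is high, so its call follows partly from the filter, and without it 22 of 32 were higher. The largest differences were those of Chac1, Trib3, Slc7a11, Asns, Wars and Tars.

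Chac1 had 10.7, 13.7, 5.23 and 9.39 CPM in WT_GC libraries 9, 11, 13 and 18, against 1.55, 1.66, 0.946 and 2.08 CPM in WT_EC libraries 10, 12, 14 and 17. Every WT_GC library stood above every WT_EC library, with library 13 the lowest of its group. The log2 fold change was 2.56 ± 0.29 (standard error, adjusted p = 4.39e-07).

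Asns had 102, 92.9, 95.1 and 95.2 CPM in WT_GC libraries, against 26.3, 21.3, 23.9 and 21.0 CPM in WT_EC libraries, in the same order. The groups were far apart and even within themselves. Its log2 fold change was 1.98 ± 0.15 (adjusted p = 2.52e-09).

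Slc7a11, the light chain of the cystine-glutamate exchanger, had 22.5, 18.8, 22.1 and 16.3 CPM in WT_GC libraries, against 4.72, 4.30, 5.82 and 4.30 CPM in WT_EC libraries. The groups did not overlap, and the log2 fold change was 1.98 ± 0.12 (adjusted p = 7.26e-11). Slc7a5, the light chain of the leucine carrier LAT1, had 41.3, 38.5, 28.4 and 40.9 CPM in WT_GC libraries, against 15.2, 13.3, 10.6 and 15.3 CPM in WT_EC libraries. Library 13 was low in WT_GC and library 14 in WT_EC, without overlap (log2 fold change 1.38 ± 0.17, adjusted p = 1.68e-06). Slc3a2, the heavy chain that both light chains need, had 67.5 ± 4.70 CPM in WT_GC and 67.7 ± 6.74 CPM in WT_EC libraries (SD, n = 4 each; log2 fold change -0.08 ± 0.08, adjusted p = 0.379). The light chains differed between the fractions and no difference was detected for their partner.

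Among the synthetases, Wars had 297, 272, 289 and 256 CPM in WT_GC libraries, against 95.9, 75.9, 88.6 and 88.2 CPM in WT_EC libraries. Tars, the threonine enzyme, had 211, 215, 222 and 209 CPM in WT_GC libraries, against 76.7, 66.4, 83.2 and 69.4 CPM in WT_EC libraries. Neither gene overlapped between the groups, and the log2 fold changes were 1.60 ± 0.17 (adjusted p = 3.55e-07) and 1.46 ± 0.08 (adjusted p = 2.23e-11). Cars (cysteine), Aars (alanine), Vars (valine) and Mars (methionine) followed, with log2 fold changes of 1.05 ± 0.08, 1.02 ± 0.09, 0.92 ± 0.14 and 0.87 ± 0.18. The remaining 11 that rose lay between 0.28 (Rars, arginine) and 0.73 (Dars, aspartate), among them Sars (serine) at 0.39 and Lars (leucine) at 0.52. Of the 8 synthetases of the multisynthetase complex, 6 rose, with a median log2 fold change of 0.51 over the 8, and of the 12 free ones 11 rose, with a median of 0.57 over the 12. Kars, Qars and Gars, which charge lysine, glutamine and glycine, had log2 fold changes of -0.04 ± 0.09, 0.06 ± 0.09 and 0.17 ± 0.09 (adjusted p = 0.701, 0.594 and 0.122).

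The synthesis enzymes were uneven. Besides Asns, Mthfd2, a mitochondrial folate enzyme, rose, with 20.6 ± 1.85 CPM in WT_GC and 7.53 ± 1.59 CPM in WT_EC libraries (SD, n = 4 each; log2 fold change 1.37 ± 0.26, adjusted p = 0.000216). Phgdh, Psat1 and Psph, the 3 steps of serine synthesis, and Shmt2, which converts serine to glycine in mitochondria, did not pass the test, with log2 fold changes of 0.23, 0.18, 0.22 and 0.27. Trib3 had 2.17, 2.16, 0.994 and 1.64 CPM in WT_GC libraries, against 0.435, 0.452, 0.218 and 0.502 CPM in WT_EC libraries. The WT_EC values stand for 3 to 7 reads a library, and the fitted log2 fold change was 2.02 ± 0.37. It is given as a description, because the gene passed the filter only through the group where it is high.

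Sesn2, a leucine sensor that restrains mTORC1, was the 1 member that fell. It had 19.5, 20.7, 13.4 and 19.1 CPM in WT_GC libraries, against 24.3, 20.1, 19 and 24.4 CPM in WT_EC libraries. The groups overlapped, and WT_GC library 13 was well below the rest. The log2 fold change was -0.35 ± 0.14 (adjusted p = 0.0304). It was -0.23 (adjusted p = 0.124) without WT_GC library 13, and the call was also lost without WT_EC library 10 or 17 and with upper-quartile factors. Rars lost its call without WT_GC library 18 or WT_EC library 10, 12 or 17 (adjusted p = 0.0616–0.0737). The other 22 higher calls held in all 22 alternative settings.

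**Figure D1:**
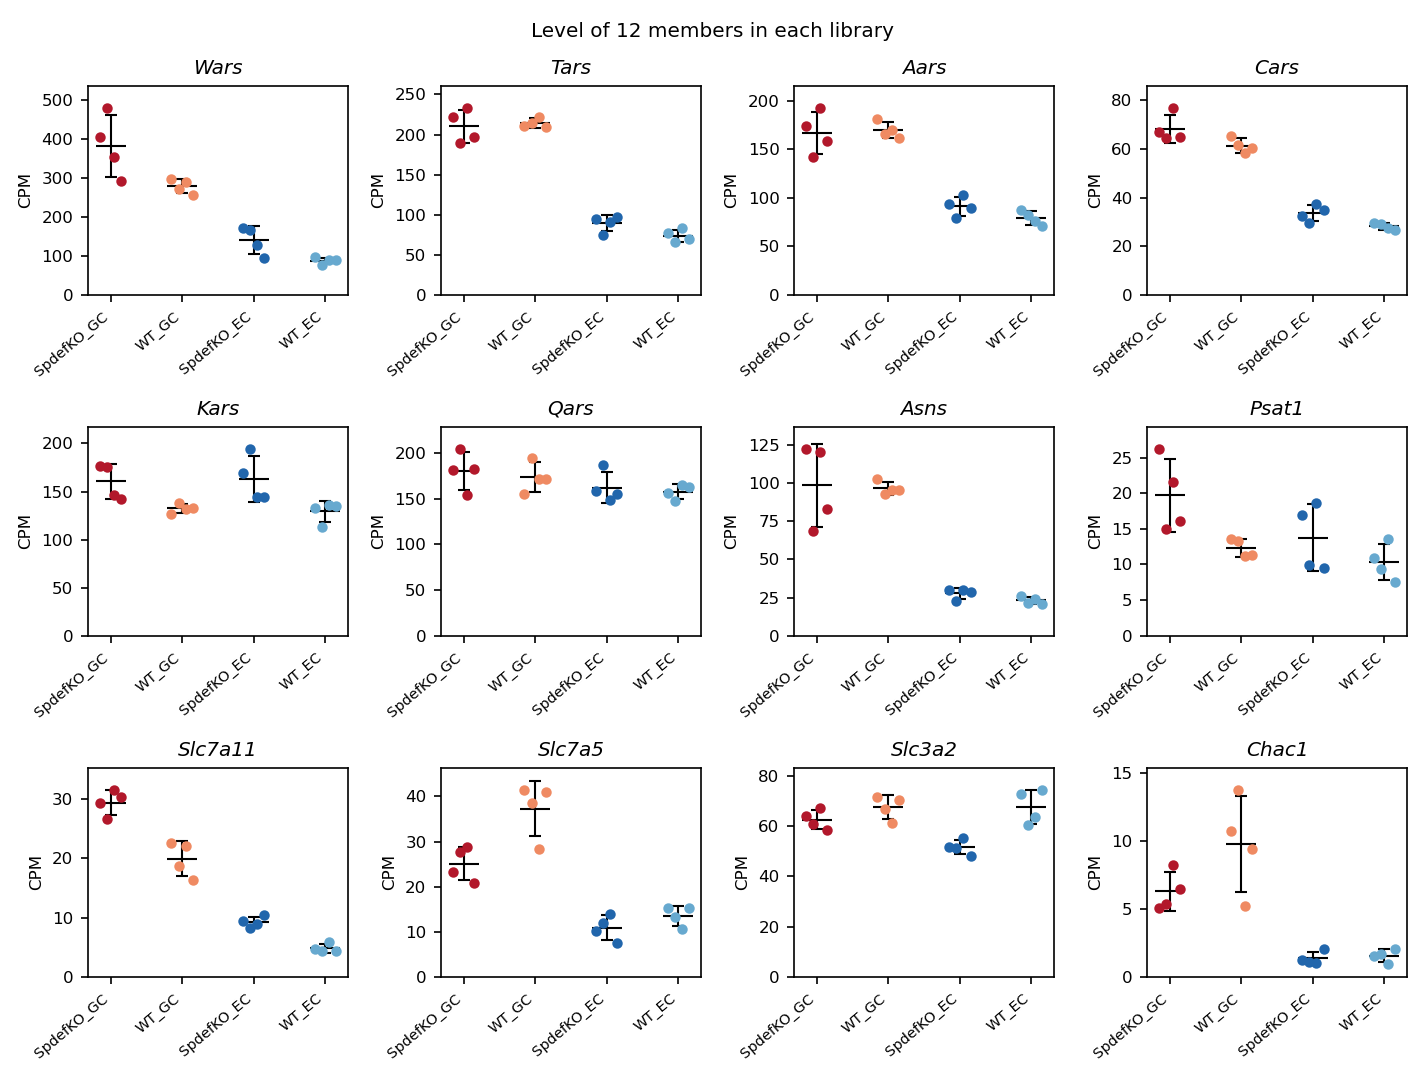
CPM (y axis, from 0) of 12 members in each library, by group (x axis), with a horizontal bar at the group mean and error bars of 1 SD (n = 4). Asns, Tars, Wars, Aars, Cars, Slc7a11, Slc7a5 and Chac1 were higher in WT_GC than in WT_EC libraries, Slc7a11 was higher in both SpdefKO groups than in their WT groups, and Qars, at 158–180 CPM on average, was near level in all 4.

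In SpdefKO_GC against SpdefKO_EC, 21 of 33 members rose and 0 fell, against 28% and 28.4% of all tested genes. No member was lower at an unadjusted p under 0.05 with the edgeR test either, and DESeq2 and limma-voom also called 0 lower. The median log2 fold change was 0.41 over the members and 0.03 over all tested genes. Chac1 again differed most, with 5.05, 5.38, 8.27 and 6.46 CPM in SpdefKO_GC libraries 3, 5, 7 and 19, against 1.27, 1.07, 1.04 and 2.08 CPM in SpdefKO_EC libraries 4, 6, 8 and 20. Those groups did not overlap (log2 fold change 2.12 ± 0.31, adjusted p = 1.02e-05). Asns, Slc7a11, Wars, Trib3 and Tars followed with log2 fold changes of 1.69 ± 0.15, 1.55 ± 0.12, 1.32 ± 0.17, 1.30 ± 0.35 and 1.11 ± 0.08. Trib3 counts among the 21, but it passed the filter only through the goblet cell libraries, where it is high. Its value is given as a description. Atf5, a stress-induced transcription factor related to ATF4, and Shmt2 rose here, with log2 fold changes of 0.52 ± 0.15 and 0.37 ± 0.15. Farsb, Hars, Rars and Yars, called in WT, did not pass the test. The calls of Farsa, Nars and Shmt2 were each lost without SpdefKO_GC library 3 or 7 or SpdefKO_EC library 6 or 20 (adjusted p = 0.0534–0.153), those of Farsa and Nars also when only these groups were fitted (adjusted p = 0.0596 and 0.0958), and that of Shmt2 also without SpdefKO_GC library 19 or WT_GC library 11. The other 18 held in those 22 settings. With libraries of neighbouring title numbers (3 and 4, 5 and 6, and so on) as a block, a pairing that the labels do not state and that was tried after seeing the data, 27 members rose and 1, Kars, fell, against 34.4% and 33% of all tested genes. Farsb, Hars, Yars, Gars, Psat1 and Slc3a2 were then called higher, and in WT that block added Gars.

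The contrasts in the 2 genotypes share no library. Of the 33 members, 32 had the same sign in both, against 82.9% of all tested genes, and 19 were higher in both, against 22.1%. Trib3, which passed the filter only through the goblet cell libraries, is among those 19. The log2 fold change was the greater in WT for 26, against 52.6% of all tested genes. Across the 33 genes Pearson's r between the contrasts was 0.97 and Spearman's rho 0.90, against 0.91 and 0.84 across all tested genes, as a description over genes that share the same 16 libraries. The difference between the contrasts, fitted as an interaction of genotype and fraction, gave 0 calls in either direction among the members, against 4.88% higher and 4.65% lower of all tested genes. At an unadjusted p under 0.05, 4 members stood out with edgeR, and DESeq2 and limma-voom called 0. Tars came nearest (interaction -0.35 ± 0.12 on the log2 scale, adjusted p = 0.0703), and it was called without SpdefKO_EC library 6 (-0.43, adjusted p = 0.00972).

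The interaction depended on the pairing of libraries. In all 8 pairs of neighbouring numbers the deviations from the group means correlated (r = 0.124–0.613 across 12915 genes), and each GC library correlated best with its own neighbour among the EC libraries of its genotype. With those pairs as a block, 10 members had a lower and 1 a higher interaction value, against 13% and 12.8% of all tested genes. The 10, for which the difference between fractions was smaller in SpdefKO, were Slc7a11 (-0.44 ± 0.13, adjusted p = 0.0197), Tars (-0.35 ± 0.08, adjusted p = 0.00430), Asns, Aars, Dars, Farsb, Mars, Nars, Rars and Wars. The 1 in the other direction was Slc3a2 (0.23 ± 0.08, adjusted p = 0.0297).

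**Figure D2:**
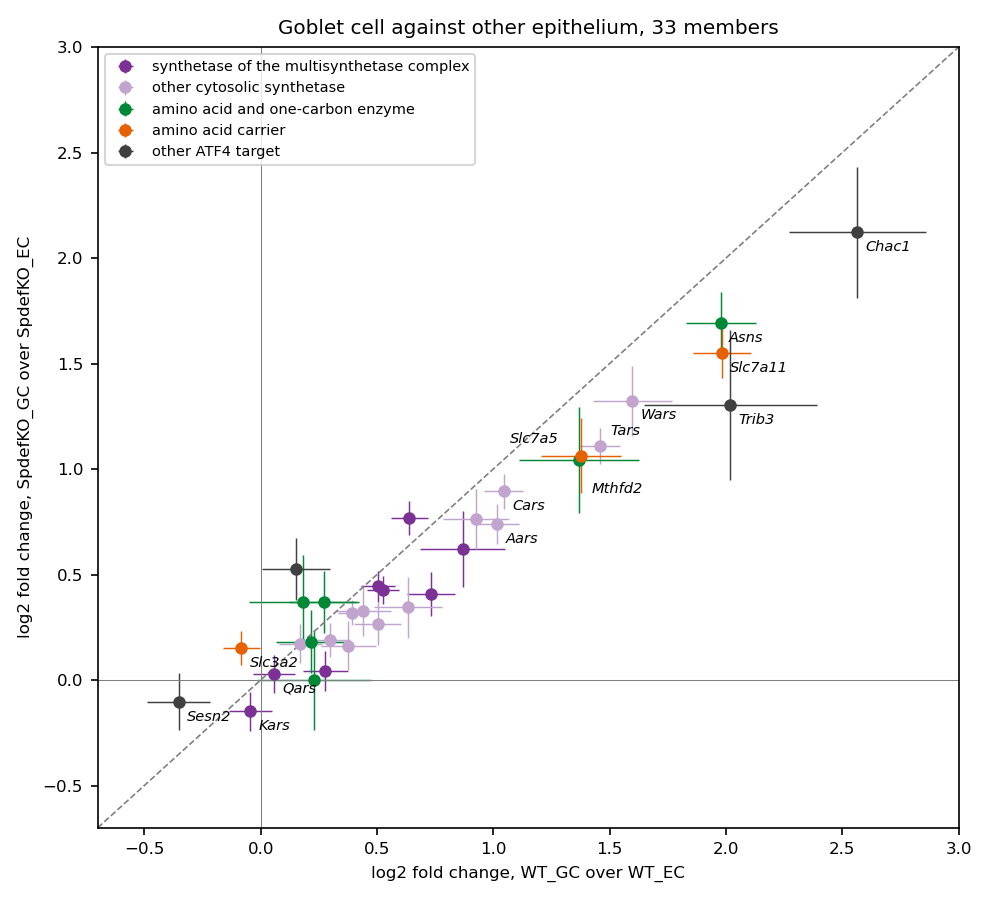
Log2 fold change of goblet cells over other epithelium for each of the 33 members in WT (x axis) and in SpdefKO (y axis), with standard errors as bars, colours for the members' roles and a dashed line of equality. Most members lie above 0 on both axes, with Chac1 at 2.56 and 2.12, and 26 of 33 lie below the dashed line.

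In the 25 members with a promoter window, those with the letters and those without had different ranges in WT_GC against WT_EC. Of the 9 with a match, 8 were higher and 1, Gars, did not pass the test, with a median log2 fold change of 1.46 (range 0.17–2.56). Of the 16 without one, 7 were higher, 1 was lower and 8 did not pass, with a median of 0.25 (range -0.35 to 1.37). Trib3, which passed the filter only through the goblet cell libraries, is among the 8 higher with a match. The ranges overlap, Mthfd2 and Mars being high without a match, and the difference was not tested. The 8 members without a window, with log2 fold changes from 0.28 (Rars) to 1.60 (Wars), could not be sorted by match. The set was also named in part for ATF4 targets. Over all tested genes with a window, 33.7% of the 258 with the letters and 31.4% of the 9288 without them were higher, and their median log2 fold changes were 0.03 and 0.06. In SpdefKO_GC against SpdefKO_EC, 7 of the 9 and 8 of the 16 members were higher, against 29.1% and 28.5% of those genes. In SpdefKO_GC against WT_GC, 2 of the 9 and 2 of the 16 rose, against 14% and 10.3%. The members' medians there were -0.02 and 0.07. In SpdefKO_EC against WT_EC, 2 of the 9 and 1 of the 16 rose, against 7.36% and 6.08%.

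Between genotypes the goblet cells differed little in most of these genes. In SpdefKO_GC against WT_GC, 4 of 33 members rose and 1 fell, against 10.4% and 11% of all tested genes, so the members' shares were near or below the background. The median log2 fold change was 0.05 over the members and 0.00 over all tested genes, and that of the members was -0.05 without SpdefKO_GC library 7 and 0.10 without SpdefKO_GC library 5. The 4 that rose were Slc7a11, Psat1, Kars and Iars, and the 1 that fell was Slc7a5. The comparison shares its WT_GC libraries with the contrast of the fractions in WT and its SpdefKO_GC libraries with that in SpdefKO.

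Slc7a11 had 29.3, 26.7, 31.5 and 30.4 CPM in SpdefKO_GC libraries 3, 5, 7 and 19, against 22.5, 18.8, 22.1 and 16.3 CPM in WT_GC libraries 9, 11, 13 and 18. All SpdefKO_GC libraries were above all WT_GC libraries. The log2 fold change was 0.55 ± 0.11 (adjusted p = 0.00146), a fold of 1.47, and the call held in all 22 settings (adjusted p = 1.33e-05 to 0.00607). It was the only one of the 5 to do so.

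Slc7a5 went the other way, with 23.3, 27.7, 28.7 and 20.7 CPM in SpdefKO_GC libraries, against 41.3, 38.5, 28.4 and 40.9 CPM in WT_GC libraries. The groups overlapped by WT_GC library 13 alone, which lay just under SpdefKO_GC library 7. The log2 fold change was -0.58 ± 0.17 (adjusted p = 0.0194). The call was lost without SpdefKO_GC library 3 or 19 or WT_GC library 9, 11 or 18 (adjusted p = 0.0514–0.0694). Slc3a2 had 62.6 ± 3.74 CPM in SpdefKO_GC and 67.5 ± 4.70 CPM in WT_GC libraries (SD, n = 4 each; log2 fold change -0.12 ± 0.08, adjusted p = 0.319).

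Psat1, the transaminase of serine synthesis, had 26.1, 15, 21.5 and 16 CPM in SpdefKO_GC libraries, against 13.6, 13.3, 11.1 and 11.4 CPM in WT_GC libraries. The groups did not overlap, but libraries 3 and 7 were well above 5 and 19. The log2 fold change was 0.66 ± 0.22 (adjusted p = 0.0429), and the call was lost without SpdefKO_GC library 3 or 7, any WT_GC library or WT_EC library 10, and with no filter (adjusted p = 0.0524–0.133). Phgdh, the first enzyme of that pathway, had 36.1, 17.7, 22.6 and 20.3 CPM in SpdefKO_GC libraries, against 17.2, 19.9, 18.2 and 17.7 CPM in WT_GC libraries. It was highest in library 3, and only library 5 lay within the WT_GC range (log2 fold change 0.40 ± 0.24, adjusted p = 0.259).

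Kars had 177, 176, 147 and 142 CPM in SpdefKO_GC libraries, against 126, 138, 132 and 133 CPM in WT_GC libraries. Iars had 67.8, 72.4, 87.8 and 72.2 CPM in SpdefKO_GC libraries, against 59.3, 62.5, 65.7 and 61.8 CPM in WT_GC libraries. Both belong to the multisynthetase complex, neither overlapped between groups, and both differences were small, with log2 fold changes of 0.27 ± 0.09 (adjusted p = 0.0440) and 0.26 ± 0.08 (adjusted p = 0.0237). The Kars call was lost in 9 of 22 settings (adjusted p = 0.0504–0.127), among them without SpdefKO_GC library 3 or 5 or any WT_GC library. The Iars call was lost without SpdefKO_GC library 7 or WT_GC library 9 (adjusted p = 0.0708 and 0.0642). The other 6 synthetases of the complex and the 12 free ones did not pass.

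Wars came near the threshold, with 405, 478, 352 and 291 CPM in SpdefKO_GC libraries, against 297, 272, 289 and 256 CPM in WT_GC libraries. Library 19 overlapped the WT_GC group and library 5 was the highest (log2 fold change 0.45 ± 0.16, adjusted p = 0.0604). It was called in 5 of 22 settings, among them DESeq2 (adjusted p = 0.0272) and without SpdefKO_GC library 19 (0.0232). WARS is known in human cells as an interferon-induced protein, and 12 interferon response genes summed to 581, 931, 370 and 355 CPM in those SpdefKO_GC libraries, against 298, 294, 213 and 310 CPM in the WT_GC libraries. The SpdefKO_GC libraries ranked in the same order by Wars as by that sum. The WT_GC libraries did not, with Wars lowest and the sum highest in library 18. In WT, Wars was higher in goblet cells but the sum was lower. That sum was 279 ± 44.5 CPM in WT_GC and 542 ± 46.8 CPM in WT_EC libraries (SD, n = 4 each). The part of the interferon response in the result was not tested. Chac1 had the lowest log2 fold change of the 33 but did not pass, at -0.65 ± 0.25 (adjusted p = 0.0717), with 6.29 ± 1.45 CPM in SpdefKO_GC and 9.77 ± 3.53 CPM in WT_GC libraries (SD, n = 4 each). It was called without WT_GC library 13 (-0.86, adjusted p = 0.0110) and without SpdefKO_GC library 7 (-0.79, adjusted p = 0.0484).

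Other cell type markers moved with the genotype in the goblet cell libraries. Proliferation markers (14 of 14 with counts) summed to 1640–2778 CPM in SpdefKO_GC and 1196–1686 CPM in WT_GC libraries. Enteroendocrine markers (10 of 10) summed to 219–323 CPM in SpdefKO_GC and 91.0–132 CPM in WT_GC libraries, and absorptive markers (10 of 10) to 912–1153 CPM in SpdefKO_GC and 523–668 CPM in WT_GC libraries. Stem and crypt base markers (7 of 7) summed to 918–977 CPM in SpdefKO_GC and 1441–1810 CPM in WT_GC libraries. Immune and stromal markers stayed at or below 10.5 and 3.47 CPM in sum in all goblet cell libraries. No defining marker was at 0 in these groups, and the part of these markers in the members' values was not tested.

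**Figure D3:**
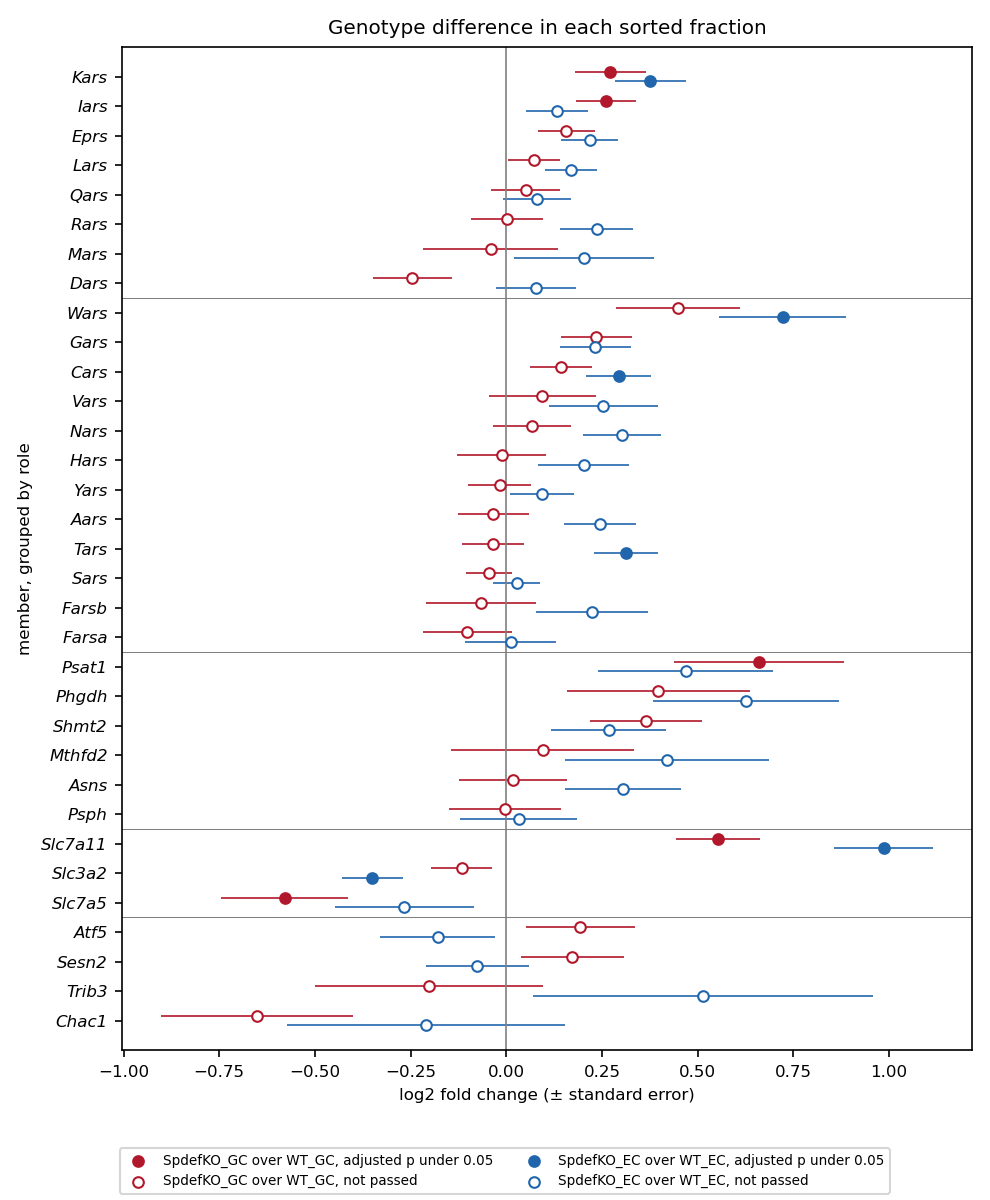
Log2 fold change of SpdefKO over WT (x axis, bars of 1 standard error) for the 33 members (y axis), grouped by role from the multisynthetase complex at the top to other ATF4 targets at the bottom, in goblet cells (red) and the other epithelium (blue). Filled points passed an adjusted p of 0.05, in both fractions for Slc7a11 and Kars, in goblet cells also for Psat1, Iars and, below 0, Slc7a5, and in the other epithelium also for Wars, Tars, Cars and, below 0, Slc3a2.

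In the other epithelium, SpdefKO_EC against WT_EC, 5 of 33 members rose and 1 fell, against 6.09% and 6.54% of all tested genes. The median log2 fold change was 0.22 over the members and 0.01 over all tested genes, and 28 of 33 values were above 0 (84.8%, against 50.8% of all tested genes), among them all 20 synthetases. Slc7a11 differed most, with 9.38, 8.28, 8.95 and 10.4 CPM in SpdefKO_EC libraries 4, 6, 8 and 20, against 4.72, 4.30, 5.82 and 4.30 CPM in WT_EC libraries 10, 12, 14 and 17. Every SpdefKO_EC library was well above every WT_EC library (log2 fold change 0.99 ± 0.13, adjusted p = 9.03e-05).

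Slc3a2 had 51.8, 51.2, 55.2 and 48.2 CPM in SpdefKO_EC libraries, against 72.6, 60.5, 63.5 and 74.2 CPM in WT_EC libraries. The groups did not overlap, and the heavy chain fell (log2 fold change -0.35 ± 0.08, adjusted p = 0.00807) where its partner Slc7a11 rose. Slc7a5 did not pass, with 10.9 ± 2.76 CPM in SpdefKO_EC and 13.6 ± 2.20 CPM in WT_EC libraries (SD, n = 4 each; log2 fold change -0.27 ± 0.18, adjusted p = 0.362).

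Wars had 170, 166, 129 and 93.3 CPM in SpdefKO_EC libraries, against 95.9, 75.9, 88.6 and 88.2 CPM in WT_EC libraries. Library 20 overlapped the WT_EC group and libraries 4 and 6 were the highest (log2 fold change 0.72 ± 0.17, adjusted p = 0.0105). The interferon response genes summed to 1216, 1378, 701 and 577 CPM in the same SpdefKO_EC libraries, against 534, 558, 483 and 595 CPM in WT_EC libraries, again highest in libraries 4 and 6. In WT_EC, Wars was highest in library 10 and the sum in library 17. The part of the interferon response genes in the result was not tested. Kars had 169, 194, 144 and 145 CPM in SpdefKO_EC libraries, against 133, 113, 136 and 135 CPM in WT_EC libraries, without overlap (log2 fold change 0.38 ± 0.09, adjusted p = 0.0126). These 4 calls held in all 22 settings.

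Tars had 94.0, 74.8, 91.0 and 97.3 CPM in SpdefKO_EC libraries, against 76.7, 66.4, 83.2 and 69.4 CPM in WT_EC libraries, with library 6 low in its group and inside the WT_EC range (log2 fold change 0.31 ± 0.08, adjusted p = 0.0201). Cars had 32.5, 29.6, 37.4 and 35.0 CPM in SpdefKO_EC libraries, against 29.7, 29.0, 27.3 and 26.7 CPM in WT_EC libraries, and here too library 6 fell within the other group (log2 fold change 0.29 ± 0.08, adjusted p = 0.0290). The Tars call was lost without SpdefKO_EC library 4 or 20 or WT_EC library 12 or 17, and when only these groups were fitted (adjusted p = 0.0643–0.0783). The Cars call was lost in 8 settings (adjusted p = 0.0535–0.0974), among them without SpdefKO_EC library 4, 8 or 20 or WT_EC library 14 or 17. Without SpdefKO_EC library 6, 11 members rose, when 9.07% of all tested genes did, and without SpdefKO_EC library 4 or 20 or WT_EC library 17, 3 did, when 2.91%, 4.94% and 3.35% of all tested genes did. Slc7a11 and Kars, 2 of 33 members, rose in both fractions, against 2.05% of all tested genes. The sign was the same in both genotype contrasts for 20 of the 33, against 59.2% of all tested genes. These contrasts share no library, but neighbouring libraries varied together as described, so they may share mice.

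Markers of other kinds moved with the genotype here as well. Proliferation markers (14 of 14 with counts) summed to 1196–2092 CPM in SpdefKO_EC and 962–1481 CPM in WT_EC libraries, with 14 of 14 log2 fold changes above 0 and 3 called higher. Enteroendocrine markers (10 of 10) summed to 237–396 CPM in SpdefKO_EC and 549–756 CPM in WT_EC libraries, and tuft cell markers (7 of 7 measured) to 8.92–15.6 CPM in SpdefKO_EC and 36.6–76.0 CPM in WT_EC libraries. Absorptive markers summed to 8710–10675 CPM in SpdefKO_EC and 10199–11260 CPM in WT_EC libraries. Of 12 interferon response genes 10 were higher, against 6.09% of all tested genes. The part of these markers in the members' values was not tested.

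The members also varied together from library to library within a group, less clearly in WT_GC. Summed over the 20 synthetases, SpdefKO_GC libraries 3, 5, 7 and 19 held 3203, 2820, 3189 and 2748 CPM, and WT_GC libraries 9, 11, 13 and 18 held 2762, 2780, 2828 and 2701 CPM. SpdefKO_EC libraries 4, 6, 8 and 20 held 2084, 1840, 2053 and 1877 CPM, and WT_EC libraries 10, 12, 14 and 17 held 1794, 1560, 1798 and 1693 CPM. WT_GC libraries were the most even: the median coefficient of variation over the synthetases was 11.7% for SpdefKO_GC, against 4.78% for WT_GC, and 11.8% for SpdefKO_EC, against 9.32% for WT_EC.

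In SpdefKO_GC, 26 and 27 of the 33 members were above their group mean in libraries 3 and 7, and 5 and 4 in libraries 5 and 19. In SpdefKO_EC the counts were 27 and 25 in libraries 4 and 8, and 7 and 13 in libraries 6 and 20. In WT_EC they were 28 and 25 in libraries 10 and 14, and 5 and 15 in libraries 12 and 17. Within each of those 3 groups, the libraries with most members above the mean were also those with the highest sums of proliferation markers. Those sums were 2778 and 2399 against 1640 and 2065 CPM in SpdefKO_GC, 1932 and 2092 against 1196 and 1431 CPM in SpdefKO_EC, and 1202 and 1481 against 1067 and 962 CPM in WT_EC. In WT_GC 18, 17, 20 and 11 members were above the mean in libraries 9, 11, 13 and 18. Proliferation markers summed to 1452, 1579, 1686 and 1196 CPM there, so the order differed for libraries 9 and 11. Whether the markers and the members move for the same reason was not tested.

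**Figure D4:**
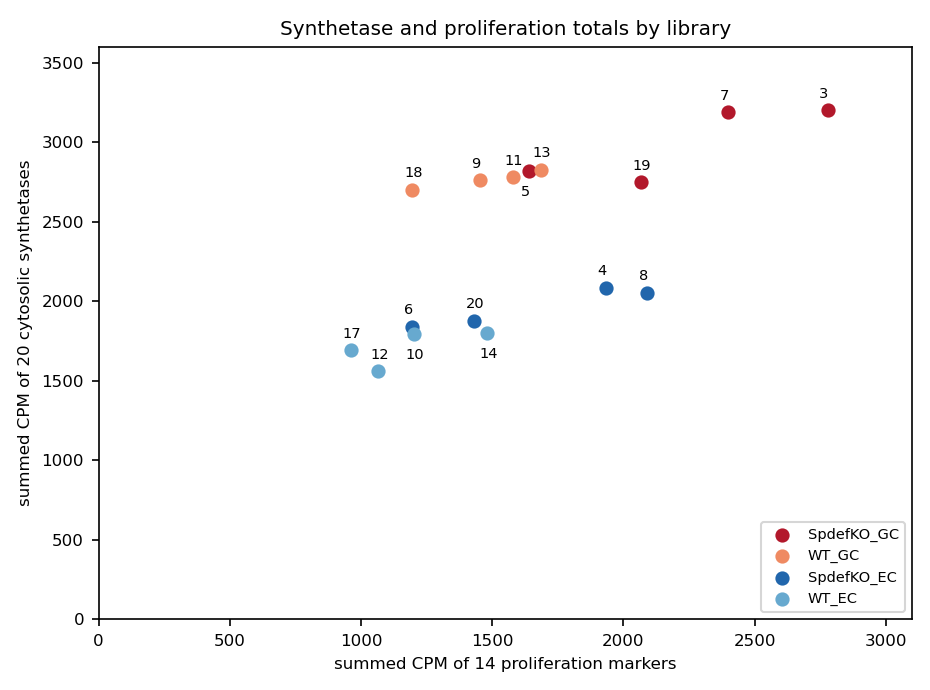
Summed CPM of the 20 cytosolic synthetases (y axis) against summed CPM of 14 proliferation markers (x axis), 1 point per library labelled with its number, coloured by group. The goblet cell libraries lie between 2701 and 3203 CPM and the others between 1560 and 2084 CPM, and SpdefKO_GC libraries 3 and 7 lie at the upper right.

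WT_GC library 13 and its neighbour WT_EC library 14 had the lowest Chac1, Trib3, Sesn2 and Slc7a5 of their groups. Summed over 12 immediate-early and heat-shock genes that cell dissociation is known to induce, library 13 held 6524 CPM, with 9917–10674 CPM in the other WT_GC libraries. Library 14 held 8489 CPM, with 11229.5–11434 CPM in the other WT_EC libraries. Of the 20 synthetases, 15 were above their group mean in library 13. The part of that difference in stress genes in the members' values was not tested.

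Of 17 kinases and regulators of the integrated stress response, 8 rose and 5 fell in WT_GC against WT_EC. The shares of all tested genes were 31% and 30.2%. Atf4 had 623 ± 100.1 CPM in WT_GC and 356 ± 41.1 CPM in WT_EC libraries, and it rose (SD, n = 4 each; log2 fold change 0.73 ± 0.11, adjusted p = 1.06e-05). Ddit3, which encodes the stress factor CHOP, rose as well (0.74 ± 0.15, adjusted p = 0.000245). Of the eIF2alpha kinases, Eif2ak3 (PERK) and Eif2ak4 (GCN2) rose, with log2 fold changes of 1.47 ± 0.10 and 0.89 ± 0.10, Eif2ak1 (HRI) fell (-0.37 ± 0.09, adjusted p = 0.00120) and Eif2ak2 (PKR) did not pass (-0.05 ± 0.06, adjusted p = 0.548). ATF4 is controlled largely by translation, so its transcript level is not its activity. In SpdefKO_GC against SpdefKO_EC, Atf4, Ddit3, Eif2ak3 and Eif2ak4 also rose, with log2 fold changes of 0.51, 0.56, 1.24 and 0.73.

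Between genotypes in goblet cells, Atf4 and Ddit3 did not pass (log2 fold changes -0.10 ± 0.11 and -0.12 ± 0.14, adjusted p = 0.534 and 0.602). Eif2ak3 fell, with 229 ± 21.5 CPM in SpdefKO_GC and 285 ± 41.5 CPM in WT_GC libraries (SD, n = 4 each; -0.32 ± 0.10, adjusted p = 0.0283), and Eif2ak4 fell by the same log2 value (adjusted p = 0.0231). Eif2ak2, itself interferon-induced, rose slightly (0.19 ± 0.06, adjusted p = 0.0395), and Eif2ak1 did not pass (0.07 ± 0.09, adjusted p = 0.623). The stress-induced regulator Nupr1 fell most of the 17 listed kinases and regulators, to 185 ± 23.3 CPM in SpdefKO_GC, against 514 ± 73.1 CPM in WT_GC libraries (-1.49 ± 0.20, adjusted p = 9.06e-05). In all, 1 of the 17 rose and 4 fell here, against 10.4% and 11% of all tested genes. In SpdefKO_EC against WT_EC, 2 rose, Eif2s2 and Eif2ak2, and 0 fell, against 6.09% and 6.54% of all tested genes.

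Other genes reported as ATF4 targets were mixed. Of 16 tested, 10 rose and 5 fell in WT_GC against WT_EC, against 31% and 30.2% of all tested genes. Those that rose included the proline enzyme Pycr1 (log2 fold change 3.84 ± 0.20), Herpud1 of endoplasmic reticulum degradation (1.93 ± 0.13) and the alanine transaminase Gpt2 (1.71 ± 0.17). In SpdefKO_GC against WT_GC 3 rose and 2 fell, against 10.4% and 11% of all tested genes. The secreted glycoprotein Stc2 was at 0.73 ± 0.12, the growth factor family member Gdf15 at 0.56 ± 0.18 and Gpt2 at -0.54 ± 0.16. A separate list of genes for mitochondrial tRNA charging gave 7 higher and 1 lower of 19 tested in WT_GC against WT_EC. The shares of all tested genes were 31% and 30.2%. Ears2, Cars2 and Aars2 had log2 fold changes of 0.69, 0.59 and 0.52 there. In SpdefKO_GC against SpdefKO_EC 1 of the 19 rose and 1 fell, against 28% and 28.4% of all tested genes. Of the 19, 0 rose and 4 fell in SpdefKO_GC against WT_GC, against 10.4% and 11% of all tested genes. The 4 were Aars2 (-0.44 ± 0.12, adjusted p = 0.0148), Ears2, Cars2 and Hars2.

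Other amino acid carriers split by gene. Of 20, 10 rose and 7 fell in WT_GC against WT_EC, against 31% and 30.2% of all tested genes. The lysosomal arginine sensor Slc38a9 had a log2 fold change of 2.44 ± 0.23. Slc6a14, a carrier of neutral and cationic amino acids, and Slc3a1, a heavy chain related to Slc3a2, were at -2.47 ± 0.13 and -3.60 ± 0.32. In SpdefKO_GC against WT_GC 2 rose and 3 fell, against 10.4% and 11% of all tested genes. The neutral amino acid carrier Slc1a4 had 94.1 ± 10.3 CPM in SpdefKO_GC and 60.9 ± 7.02 CPM in WT_GC libraries (SD, n = 4 each; log2 fold change 0.62 ± 0.10, adjusted p = 0.000258). Slc1a5, the glutamine carrier ASCT2, had 156 ± 5.44 CPM in SpdefKO_GC and 231 ± 8.12 CPM in WT_GC libraries (-0.57 ± 0.06, adjusted p = 2.21e-06). Slc7a6, another light chain that pairs with Slc3a2, had 24.1 ± 3.26 and 39.4 ± 3.54 CPM in those groups (-0.72 ± 0.11, adjusted p = 0.000109). Slc1a5 also fell in SpdefKO_EC against WT_EC (-0.36 ± 0.06, adjusted p = 0.000932).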

How the data were processed

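The deposited table held raw read counts per gene symbol, made by the authors. Per the submitters' processing notes the build was mm10, and the tools listed, without roles, were HTSeq 0.6.1p1, STAR 2.4.0f, DESeq2 1.14 and FastQC 0.11.2. The annotation used and the counting's strand setting were not given in the sources used here. The kit marks strand, so members whose exons overlap another gene are uncertain: Psph (26.1% of its exonic length), Aars (23.1%), Farsb (12.2%) and Hars (9.80%), with Atf5, Mars, Yars and Shmt2 at 4.52% or less. A second deposited table of normalized values was not used. Left out were 3 entries without a gene name, which took 47.1–54.7% of each library's counts.

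CPM is a count over the library's sum of gene counts. Tests used edgeR 4.0.16 (R 4.3.3), with TMM factors, filterByExpr by group, a robust quasi-likelihood fit of 1 coefficient per group over all 16 libraries and Benjamini-Hochberg adjustment over 12915 genes, two-sided; a call is an adjusted p under 0.05. The standard error is the log2 fold change over the root of the F statistic, an approximation. TMM lowers the log2 difference between GC and EC by 0.08 (WT) and 0.13 (SpdefKO) against plain CPM. DESeq2 1.42.0, limma-voom (limma 3.58.1), RLE and upper-quartile factors, no filter, only the groups compared and leaving out each library were the alternatives. A block of libraries with neighbouring title numbers was added after seeing the data; it can be fitted to the fraction contrasts and the interaction only. The labels do not state this pairing, which rests on the numbers and on correlated deviations (over 0.1 in 8 of 8 pairs). Replicate pairs of a group differed by more than counting noise (chi-square over its degrees of freedom, 4.53–34.5 in 24 pairs), so none was counted as 1 sample. The scripts were tested on simulated counts.

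The members and gene lists were chosen with earlier results of these data known. Every member is named. Those called in SpdefKO_GC against WT_GC, and the 6 called with the largest differences in each direction in WT_GC against WT_EC, are given in full. From other lists, up to 3 called genes with the largest differences and a mean of at least 5 CPM in the higher group are named, with Atf4, Ddit3 and the eIF2alpha kinases always. Values of a few members outside this rule (Wars, Chac1, Phgdh and those called in the other epithelium) were chosen after they were seen. A further promoter match was left out and is not reported here.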

Additional observations from a re-analysis of the deposited data

Results flagged for a closer look

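Of 132 sets of 4 libraries (33 members in 4 groups), 3 held a library far from the other 3 by Dixon's criterion, where chance gives about 1 in 20. Eprs, the glutamate and proline enzyme, had 325 CPM in WT_GC library 13, the lowest, with the others within rounding of 331 CPM, a small gap in a very even group. Farsa, the phenylalanine enzyme's catalytic chain, had 19.2 CPM in WT_EC library 12, against 25.3–25.6 CPM in the others. Kars had 113 CPM in the same library, against 133–136 CPM in the others.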

How the results depend on the processing

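The groups share no replicate numbers. With neighbouring numbers as a replicate block, added after seeing the data, 24 members were higher and 1 lower in WT_GC against WT_EC, 27 and 1 in SpdefKO_GC against SpdefKO_EC, and 1 and 10 in the interaction; no call was lost. Over the 22 other settings, 3494 of 3596 recomputed member values stayed on the same side of the threshold, 61 lost a call and 41 gained one, and 0 called values changed sign; 94 values called in neither setting did. In SpdefKO_GC against WT_GC, the 4 higher members became 2 with no filter and 1–6 when a library was left out, and the 1 lower became 0–2. In WT_GC against WT_EC, the 1 lower became 0 with upper-quartile factors and 0–1 when a library was left out, and the 23 higher 22–23. In SpdefKO_GC against SpdefKO_EC the 21 higher ran over 18–24. In SpdefKO_EC against WT_EC, the 5 higher became 3 with only the groups compared and ran over 3–11 when a library was left out. The interaction's 0 lower ran over 0–1. The motif share of 36% was 8% with the stricter letters. In each case the cause was not tested. Upper-quartile factors moved the share of called genes that were higher to 58.4%, against 50.7%, in WT_GC against WT_EC, to 60.9%, against 49.7%, in SpdefKO_GC against SpdefKO_EC, where the median of all genes became 0.15, and to 33.1%, against 48.3%, in SpdefKO_EC against WT_EC. At 10085637–17111987 gene counts a library, Trib3 in the EC libraries was the member most limited by depth.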

Other observations

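The endoplasmic reticulum stress sensors and chaperones, which fold secreted protein, were higher in goblet cells almost throughout. In WT_GC against WT_EC 20 of 21 rose, against 31% of all tested genes. Ern2, the epithelial form of the sensor IRE1, had 441 ± 13.4 CPM in WT_GC and 45.6 ± 3.34 CPM in WT_EC libraries (SD, n = 4 each; log2 fold change 3.19 ± 0.09, edgeR adjusted p = 1.83e-15). In SpdefKO_GC against WT_GC, 2 of the 21 rose and 1 fell, against 10.4% and 11% of all tested genes. Ern2 fell to 252 ± 27.3 CPM in SpdefKO_GC, against 441 ± 13.4 CPM in WT_GC libraries (-0.81 ± 0.09, adjusted p = 2.21e-06), and Ern1, the widely expressed form, rose, with 100.2 ± 15.4 and 73.9 ± 4.75 CPM in those groups (0.44 ± 0.10, adjusted p = 0.00537).

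Of 16 tested genes of the mTORC1 and Myc axis, 4 rose and 0 fell in SpdefKO_GC against WT_GC, against 10.4% and 11% of all tested genes. The axis drives growth and amino acid use. The list also holds genes that restrain it, so the counts give no direction of the axis. With edgeR, Myc had a log2 fold change of 0.64 ± 0.14 (adjusted p = 0.00402), Mycn 0.78 ± 0.20 (adjusted p = 0.00871) and the nucleolar protein gene Ncl 0.44 ± 0.11 (adjusted p = 0.00920). Of 15 other enzymes of serine, glycine and folate metabolism, 4 rose, 3 fell and 8 did not pass in WT_GC against WT_EC, with a median log2 fold change of 0.07. Of all tested genes, 31% were higher and 30.2% lower there, with a median of 0.05. The most different was Aldh1l2, a mitochondrial folate enzyme, which had 12.3 ± 1.84 CPM in WT_GC and 0.439 ± 0.350 CPM in WT_EC libraries (SD, n = 4 each; log2 fold change 4.71 ± 0.40, adjusted p = 1.10e-08). Its WT_EC level rests on few reads, with an SD not far below the mean, so the size of the difference is uncertain. Like Trib3, Aldh1l2 may have passed the filter only through groups where it is higher, so its value is given as a description.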
